A study of Mus musculus with 10 samples.

Results

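A set of 10 genes of lymphatic vessel growth and identity was followed in the mouse hippocampus after photoablation of meningeal lymphatic vessels: the ligands Vegfc and Vegfd, the ligand-processing cofactor Ccbe1, the receptor Flt4 and co-receptor Nrp2, the angiopoietin Angpt2, the valve genes Foxc2 and Itga9, and the surface markers Pdpn and Lyve1. They were taken by name from the table of 28871 deposited genes, and all 10 were found and passed the filter on low counts that left 19093 genes. The 5 Visudyne samples came from male wild-type C57BL/6J mice, 2 months old, given Visudyne, an injectable form of the photosensitizer verteporfin, into the cisterna magna, followed by non-thermal red light of 689 nm through the intact skull. The 5 vehicle samples came from mice of the same strain, sex and age that received vehicle into the cisterna magna and, per the labels, the same light step. The procedure was repeated after 2 weeks, and whole hippocampus was dissected 2 weeks after the last one. Both groups thus shared the injection and the illumination and differed in the photosensitizer. The labels do not state whether a sample is 1 animal, so p-values measure only the spread between these samples, which may be technical.

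VEGFC and VEGFD are secreted as precursors. CCBE1 presents pro-VEGFC to the protease ADAMTS3, and the cleaved ligand activates VEGFR3, the product of Flt4, on lymphatic endothelium, with neuropilin 2 as co-receptor. The parenchyma of the hippocampus is not known for lymphatic vessels of its own, and several of these genes have other sites of expression there. Neuropilin 2 is also a semaphorin receptor of hippocampal neurons, VEGFD acts on neuronal dendrites in mouse, podoplanin is found on choroid plexus and ependyma, and LYVE1 marks macrophages at the borders of the brain.

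The libraries held between 51165271 and 68895223 estimated counts, which differed between groups by less than the spread between samples (exact two-sided permutation test, p = 0.516, n = 5 each). Values are CPM, counts per 1000000 of the library total scaled with the TMM (trimmed mean of M-values) factor, as mean ± SD with n = 5 per group. Log2 fold changes are Visudyne minus vehicle from edgeR's quasi-likelihood test, with a 95% confidence interval. Neuronal markers of the hippocampus were abundant: the summed level of 4 CA1 pyramidal cell markers was 384 to 449 CPM in Visudyne and 376 to 442 CPM in vehicle samples. In vehicle 7 the summed choroid plexus markers reached 219 CPM, mostly Ttr at 179 CPM, against 25.5 to 52.2 CPM in Visudyne samples and 28.1 to 43.7 CPM in the other 4 vehicle samples.

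The promoter windows of 2 of the genes are shown, the growth factor Vegfc and the marker Pdpn, because their RefSeq start lies at or before the start of the gene in GENCODE and because the window of Pdpn holds the letters GTAAACA of the forkhead family, to which FOXC2 belongs. They are RefSeq windows of GRCm38.p6, from 250 bases before to 50 bases after the annotated start, written in the direction of the gene. Vegfc lies on the plus strand (chr8:54077282-54077581) and Pdpn on the minus strand (chr4:143299515-143299814). Capitals mark the forkhead letters, which occur in Pdpn on the reverse strand with their first base 153 bases before the start.

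Vegfc: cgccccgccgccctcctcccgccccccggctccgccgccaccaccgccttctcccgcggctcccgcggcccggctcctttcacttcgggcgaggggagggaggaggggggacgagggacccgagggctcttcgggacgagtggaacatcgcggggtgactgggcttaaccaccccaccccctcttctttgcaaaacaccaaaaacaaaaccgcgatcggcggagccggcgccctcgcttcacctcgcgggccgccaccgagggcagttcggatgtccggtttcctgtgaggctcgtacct

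Pdpn: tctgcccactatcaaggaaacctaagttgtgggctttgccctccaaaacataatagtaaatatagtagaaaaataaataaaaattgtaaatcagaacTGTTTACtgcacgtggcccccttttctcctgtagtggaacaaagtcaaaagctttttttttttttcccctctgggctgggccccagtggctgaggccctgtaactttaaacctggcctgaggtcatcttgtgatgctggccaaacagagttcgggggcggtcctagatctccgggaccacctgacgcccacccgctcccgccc

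The Vegfc window was 70.3% G and C with 35 CpG dinucleotides, and the Pdpn window 48.7% with 7, where the median of 32851 promoter windows was 52.7% with 7. GTAAACA was searched on both strands and was found in 3.65% of those windows. Of the 6 genes with a window, Vegfc, Vegfd, Flt4, Nrp2, Itga9 and Pdpn, it was found in Pdpn alone. The RefSeq start of the Itga9 window lies 105002 bases downstream of the gene's start in GENCODE, and that of Flt4 416 bases. The Itga9 window thus does not cover the start of the gene. Foxc2, Lyve1, Angpt2 and Ccbe1 had no window. The Vegfc window ends before the gene's start in GENCODE, which lies 74 bases downstream of the RefSeq start. No binding was measured in these samples.

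Foxc2 was the member with the largest difference, and no member passed the test over all genes. Of the 10 genes, 0 had an edgeR adjusted p under 0.05, where 0.021% of all tested genes did, and 0 passed with DESeq2 or limma voom. At an unadjusted p under 0.05, 1 gene, Foxc2, was higher, against 1.14% of all genes, and 0 were lower, against 0.56%. DESeq2 and limma voom also gave 1 gene, Foxc2. Pdpn joined it with upper-quartile factors, voom quality weights, the sample number as covariate or consecutive sample numbers as a block. The same held without vehicle 1, without Visudyne 15 and without both. With the filter of 1 CPM in 5 samples Foxc2 was not tested, and Pdpn was the 1 member under 0.05. The whole Visudyne group exceeded the whole vehicle group in 1 gene, Foxc2, against 0.319% of all genes, and lay wholly under it in 0, against 0.115%. The fold change was positive in 8 of 10 members with a median of 0.13, while 51.1% of all tested genes were positive with a median of 0.0022. Each member had an edgeR adjusted p of 0.9999. Members were chosen with earlier results of these data known, so the counts above are a description.

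**Figure D1:**
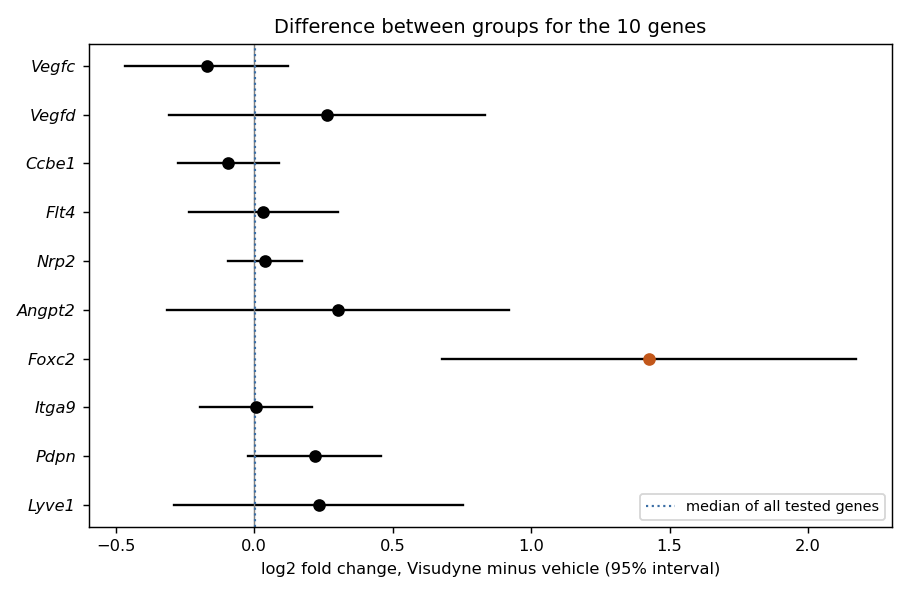
Log2 fold change, Visudyne minus vehicle, of each of the 10 genes (points) with its 95% confidence interval (lines) from edgeR's quasi-likelihood fit. The dotted line is the median of all tested genes, and the orange point marks Foxc2 at 1.43, the gene whose groups do not overlap; the interval of Foxc2 lies above 0 and those of the other 9 genes include 0.

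The growth factor ligands did not separate the groups. Vegfc (ENSMUSG00000031520, chromosome 8, 54077606 to 54187096, plus strand), the main growth factor of lymphatic endothelium, measured 2.32, 2.37, 2.16, 2.09 and 2.30 CPM in Visudyne 3, 6, 9, 12 and 15, against 2.73, 2.78, 2.13, 3.06 and 1.96 CPM in vehicle 1, 4, 7, 10 and 13. All 5 Visudyne samples lay inside the range of the vehicle samples, which spread more widely. The means were 2.25 ± 0.117 CPM in Visudyne and 2.53 ± 0.467 CPM in vehicle samples, and the log2 fold change was -0.17 with an interval of -0.47 to 0.12 (SE 0.14, edgeR unadjusted p = 0.230). The interval allows a level from 0.724 to 1.09 times that of vehicle.

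Vegfd (ENSMUSG00000031380, chromosome X, 164373378 to 164402650, plus strand), the second ligand of VEGFR3, measured 1.21, 1.81, 0.844, 1.50 and 1.74 CPM in Visudyne 3, 6, 9, 12 and 15, against 1.23, 0.927, 1.53, 1.56 and 0.697 CPM in vehicle 1, 4, 7, 10 and 13. High and low samples occurred in both groups, and the coefficient of variation was 28.2% in Visudyne and 31.7% in vehicle samples. The log2 fold change was 0.26 (interval -0.31 to 0.83, SE 0.26), and the interval allows a level from 0.808 to 1.78 times that of vehicle. Ccbe1 (ENSMUSG00000046318, chromosome 18, 66045302 to 66302741, minus strand) measured 16.8, 14.1, 15.2, 16.9 and 17.4 CPM in Visudyne 3, 6, 9, 12 and 15, against 15.7, 14.9, 17.2, 19.7 and 18.2 CPM in vehicle 1, 4, 7, 10 and 13. The groups overlapped, with a log2 fold change of -0.09 (interval -0.28 to 0.09, SE 0.08). Ccbe1 shares 320 exon bases with the antisense gene Gm15958, which had 15 to 29 counts per sample, and the labels do not state whether the counting used strand, so reads of the shared bases cannot be told apart.

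The receptor and co-receptor had fold changes close to 0. Flt4 (ENSMUSG00000020357, chromosome 11, 49609263 to 49652739, plus strand), which encodes VEGFR3, measured 2.00, 2.33, 2.04, 1.60 and 2.21 CPM in Visudyne 3, 6, 9, 12 and 15, against 1.93, 2.11, 2.13, 1.86 and 1.95 CPM in vehicle 1, 4, 7, 10 and 13. Both the highest and the lowest sample were Visudyne samples. The means were 2.04 ± 0.276 CPM in Visudyne and 1.99 ± 0.116 CPM in vehicle samples (log2 fold change 0.03, interval -0.24 to 0.30, SE 0.12). Nrp2 (ENSMUSG00000025969, chromosome 1, 62703285 to 62818695, plus strand) measured 67.7, 67.0, 70.5, 73.3 and 71.6 CPM in Visudyne 3, 6, 9, 12 and 15, against 67.3, 60.1, 69.8, 77.6 and 65.9 CPM in vehicle 1, 4, 7, 10 and 13. The vehicle samples enclosed all Visudyne samples, and the log2 fold change was 0.04 (interval -0.10 to 0.17, SE 0.06), the narrowest interval of the 10. Per kilobase of exon, Nrp2 stood at 0.593 to 0.641 times the level of its paralog Nrp1 in Visudyne and 0.592 to 0.638 times in vehicle samples. This ratio depends on the length used. Nrp2 has 11842 exon bases and a longest transcript of 6723, and Nrp1 9785 and 3645. It was not computed with the longest transcript.

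Angpt2 (ENSMUSG00000031465, chromosome 8, 18690263 to 18741562, minus strand), a ligand of the Tie2 receptor that is needed for the remodelling of lymphatic vessels in mouse, varied most within the Visudyne group. It measured 2.07, 2.79, 2.19, 1.32 and 4.29 CPM in Visudyne 3, 6, 9, 12 and 15, against 1.42, 2.57, 2.36, 1.50 and 2.41 CPM in vehicle 1, 4, 7, 10 and 13. The coefficient of variation was 43.9% in Visudyne and 26.6% in vehicle samples, and the log2 fold change was 0.30 (interval -0.31 to 0.92, SE 0.28). Without vehicle 1 and Visudyne 15 it was -0.07. The TMM factor was also highest in Visudyne 15 (1.07) and lowest in vehicle 1 (0.947) and Visudyne 12 (0.969), and its part in the spread of Angpt2 was not tested. Angpt2 lies within Mcph1, a gene of the opposite strand with which it shares 0 exon bases. Mcph1 had a log2 fold change of -0.03 (SE 0.05).

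**Figure D2:**
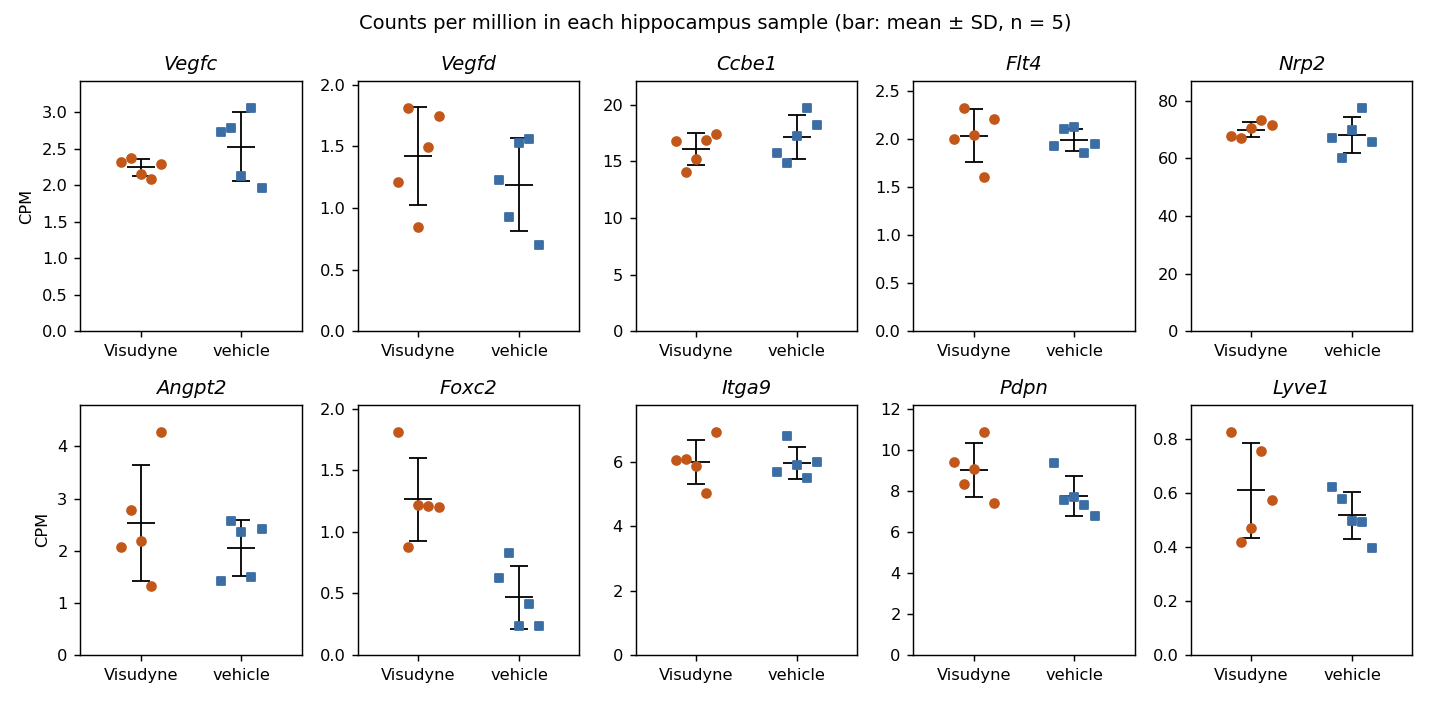
CPM of each of the 10 genes in every sample, with 1 panel per gene, Visudyne samples as circles on the left and vehicle samples as squares on the right; black bars give mean ± SD of 5 samples and each vertical axis starts at 0. Foxc2 is the panel in which the lowest Visudyne sample (0.879 CPM) lies above the highest vehicle sample (0.831 CPM); in the other 9 panels the groups overlap.

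Among the valve genes, Foxc2 separated the groups and Itga9 did not. Foxc2 (ENSMUSG00000046714, chromosome 8, 121116171 to 121118895, plus strand), a forkhead transcription factor required for lymphatic valves, measured 1.81, 0.879, 1.22, 1.21 and 1.20 CPM in Visudyne 3, 6, 9, 12 and 15, against 0.623, 0.831, 0.238, 0.415 and 0.238 CPM in vehicle 1, 4, 7, 10 and 13. Every Visudyne sample lay above every vehicle sample, by a narrow margin between Visudyne 6 and vehicle 4. The means were 1.26 ± 0.339 CPM in Visudyne and 0.469 ± 0.257 CPM in vehicle samples, a 2.69-fold level (interval 1.60 to 4.51; log2 fold change 1.43, SE 0.34, edgeR unadjusted p = 0.0013, adjusted p = 0.9999). It ranked at place 22 of 19093 by p. These levels rest on 12 to 105 counts per sample. The samples are whole hippocampus, so the cells that express Foxc2 cannot be told from these values.

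The unadjusted p of Foxc2 ranged from 6.1e-05 to 0.0045 and the adjusted p from 0.0579, with DESeq2, to 0.99998 over its 19 alternatives. The gene Gm20388 spans Foxc2 on the same strand but shares 0 exon bases with it, and its log2 fold change was -0.03 (SE 0.16). The paralog Foxc1, which is needed for the development of the meninges in mouse, measured 6.40 ± 1.25 CPM in Visudyne and 5.22 ± 1.01 CPM in vehicle samples, with overlapping groups (log2 fold change 0.30, SE 0.15, edgeR adjusted p = 0.9999).

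Most markers of meningeal and perivascular fibroblasts differed in the same direction as Foxc2, but not all by more than the spread between samples. The summed level of the 15 markers was 181, 190, 156, 166 and 152 CPM in Visudyne 3, 6, 9, 12 and 15, against 151, 129.5, 104, 131 and 64.9 CPM in vehicle 1, 4, 7, 10 and 13. All Visudyne sums thus exceeded all vehicle sums, by a narrow margin between Visudyne 15 and vehicle 1. Col1a1, a type I collagen chain, rose as the 1 marker that passed over all genes (2.26-fold, edgeR adjusted p = 0.0485). That call was lost in 8 of 10 fits with a sample left out, where the edgeR adjusted p ran from 0.0275 to 0.279 and the log2 fold change from 1.08 to 1.30. It was lost when any 1 of the 5 Visudyne samples, or vehicle 7, 10 or 13, was left out. Of the 15 markers 14 were positive, 0 fell by the test, 9 were higher at an unadjusted p under 0.05 (1.14% of all genes), 5 had every Visudyne sample above every vehicle sample (0.319% of all genes) and none was at 0 in all samples. The markers not under that p had log2 fold changes of 0.18 for Dcn, 0.04 for Lum and 0.18 for Slc6a13. They were 0.15 for Slc22a6, 0.29 for Crabp2 and -0.05 for Aldh1a2. The list was chosen with earlier results of these data known, so the shares over all genes are no independent test of it. With sets of consecutive sample numbers as a block, 3 of the 15 passed with edgeR, Col1a1, Col3a1 and Mgp, and with DESeq2 5 passed. The count was 6 with edgeR and the sample number as covariate, and 4 with voom quality weights. It was 0 with upper-quartile factors and 0 with the filter of 1 CPM in 5 samples, both with edgeR. The samples did not follow the same order in the fibroblast sum and in Foxc2. Visudyne 6 had the highest fibroblast sum and the lowest Foxc2 of its group. Vehicle 4, the highest vehicle sample in Foxc2, had a fibroblast sum below those of vehicle 1 and vehicle 10. Vehicle 7 and vehicle 13 were lowest of their group in both. The order of the sums rests in part on Dcn, a large term with a log2 fold change of 0.18. Dcn had 54.9 CPM in Visudyne 6 against 34.3 CPM in Visudyne 3. It had 60.8 CPM in vehicle 10 against 26.7 CPM in vehicle 4. The part of the fibroblast markers in the Foxc2 difference was not tested. In bulk tissue, more cells of a type and more RNA per cell cannot be told apart.

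Itga9 (ENSMUSG00000039115, chromosome 9, 118606690 to 118901003, plus strand), the integrin subunit through which lymphatic valve leaflets bind a fibronectin isoform, measured 6.06, 6.09, 5.87, 5.05 and 6.95 CPM in Visudyne 3, 6, 9, 12 and 15, against 5.70, 6.80, 5.90, 5.50 and 6.00 CPM in vehicle 1, 4, 7, 10 and 13. The groups overlapped, and Visudyne samples held both the highest and the lowest value. The means were 6.01 ± 0.679 CPM in Visudyne and 5.98 ± 0.498 CPM in vehicle samples. Its log2 fold change of 0.0067 (interval -0.20 to 0.21, SE 0.09) was the smallest of the 10 in size.

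The surface markers of lymphatic endothelium had positive fold changes that did not exceed the spread between samples. Pdpn (ENSMUSG00000028583, chromosome 4, 143267431 to 143299564, minus strand), a mucin-like membrane glycoprotein, measured 9.40, 8.33, 9.08, 10.9 and 7.41 CPM in Visudyne 3, 6, 9, 12 and 15, against 9.36, 7.57, 7.69, 7.33 and 6.78 CPM in vehicle 1, 4, 7, 10 and 13. In Visudyne 4 of 5 samples exceeded the vehicle median, and vehicle 1 lay among the highest. The means were 9.02 ± 1.30 CPM in Visudyne and 7.75 ± 0.968 CPM in vehicle samples (log2 fold change 0.22, interval -0.02 to 0.46, SE 0.11, edgeR unadjusted p = 0.0709). Over its 20 alternatives the unadjusted p ran from 0.0018, without vehicle 1 and Visudyne 15, to 0.171, without Visudyne 12, and the lowest adjusted p was 0.731. Visudyne 12, the highest Pdpn sample, also had the highest sum of 5 ependymal markers, 23.04 CPM, against 8.50 to 10.4 CPM in the other Visudyne samples and 8.42 to 14.2 CPM in vehicle samples. All 5 ependymal markers had positive fold changes and 0 passed in either direction; their part in the Pdpn values was not tested. Vehicle 7, with its high choroid plexus sum, had a Pdpn level of 7.69 CPM, near the mean of its group. This is 1 sample, and the part of the choroid plexus in the Pdpn values was not tested. In both Pdpn and the fibroblast marker sum, Visudyne 15 and vehicle 13 were lowest of their groups and vehicle 1 highest of its group. Visudyne 12 had a fibroblast sum of 166 CPM, below the 190 CPM of Visudyne 6. The part of the fibroblast markers in the Pdpn values was not tested.

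Lyve1 (ENSMUSG00000030787, chromosome 7, 110850607 to 110863239, minus strand), a hyaluronan receptor, measured 0.829, 0.418, 0.473, 0.757 and 0.575 CPM in Visudyne 3, 6, 9, 12 and 15, against 0.623, 0.580, 0.497, 0.494 and 0.396 CPM in vehicle 1, 4, 7, 10 and 13. These are 25 to 48 counts per sample, and the log2 fold change of 0.23 had an interval from -0.29 to 0.75 (SE 0.24). The groups overlapped over most of their range. The summed level of 8 border macrophage markers was 7.85 to 13.2 CPM in Visudyne and 6.79 to 12.2 CPM in vehicle samples. Visudyne 3 was highest in both Lyve1 and this sum and vehicle 13 lowest in both, but Visudyne 12, the second in Lyve1, had a sum of 8.87 CPM, and Visudyne 15, the second in the sum at 12.4 CPM, had 0.575 CPM of Lyve1. Of the 8 markers 7 were tested, 5 were positive and 0 passed in either direction. Their part in the spread of Lyve1 was not tested.

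Defining markers of lymphatic endothelium were low in both groups. The 6 listed genes, of which Lyve1 is shared with border macrophages (Ccl21a, Mmrn1, Stab2, Clca3a1, Flt4 and Lyve1) summed to 3.52 to 5.52 CPM in Visudyne and 3.64 to 4.75 CPM in vehicle samples, with Flt4 as the largest term, and 5 passed the low-count filter. Mmrn1, a multimerin of lymphatic endothelium, had 0 to 3 counts per sample. Ccl21a, the chemokine that guides immune cells into lymphatics, averaged 0.522 ± 0.253 CPM in Visudyne and 0.332 ± 0.188 CPM in vehicle samples (log2 fold change 0.65, SE 0.47). It has near-identical copies, so that its counts are uncertain. Prox1, the master regulator of lymphatic identity, stood far higher, at 101.4 ± 10.7 CPM in Visudyne and 107.5 ± 7.84 CPM in vehicle samples (-0.09, SE 0.07); it is also a marker of dentate granule neurons. Blood vessel endothelium markers summed to 97.0 to 134.6 CPM in Visudyne and 100.6 to 139.2 CPM in vehicle samples, and 0 of 8 passed in either direction.

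The 10 genes covered a wide range of levels when compared per length. On the scale of CPM per kilobase of exon over all 10 samples, Nrp2 stood highest at 5.83 ± 0.397, followed by Pdpn at 4.61 ± 0.701 and Ccbe1 at 1.53 ± 0.155. Vegfc stood at 0.976 ± 0.145, Itga9 at 0.779 ± 0.073, Angpt2 at 0.621 ± 0.234 and Vegfd at 0.542 ± 0.160. Foxc2 at 0.318 ± 0.186, Flt4 at 0.245 ± 0.0244 and Lyve1 at 0.193 ± 0.0483 were lowest. The ranges over samples did not overlap between Pdpn and Ccbe1 or between Ccbe1 and Vegfc; all other neighbours in this order overlapped. With the longest transcript as the length, Nrp2 and Pdpn no longer overlapped and Flt4 and Foxc2 changed places.

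**Figure D3:**
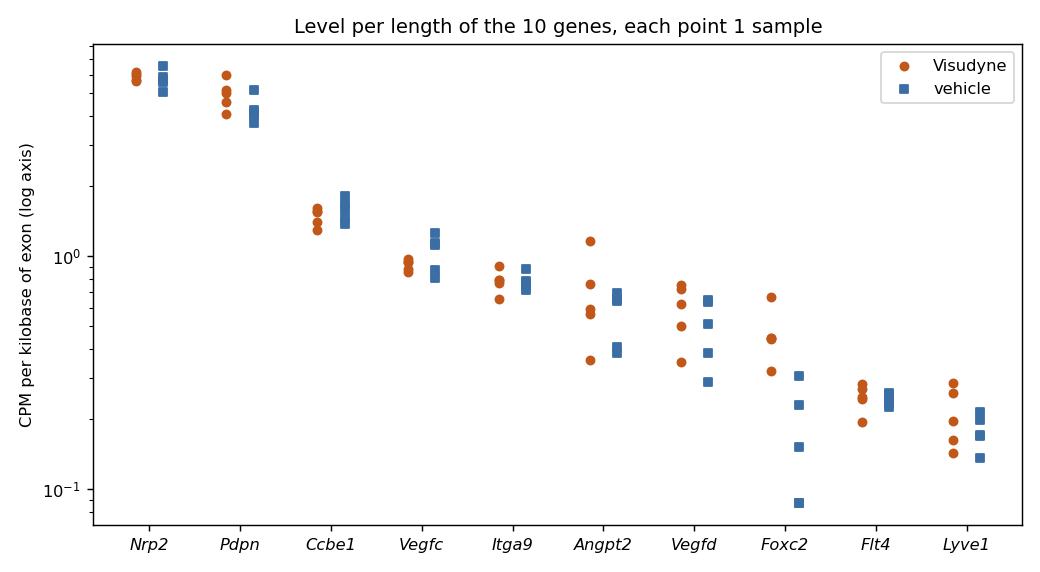
CPM per kilobase of exon (log axis) of the 10 genes in every sample, ordered by the mean over all 10 samples, with Visudyne samples as circles on the left of each gene and vehicle samples as squares on the right. Nrp2 and Pdpn lie above the rest, and Foxc2 spans the widest range, from 0.087 to 0.666.

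Per length, both lymphatic ligands stood below the main VEGF ligands of this tissue. Vegfa, the main growth factor of blood vessels, stood at 6.18 CPM per kilobase over all samples, Vegfb at 9.16 and Pgf, the placental growth factor gene, at 0.851. Vegfc reached 0.134 to 0.171 times the Vegfa level in Visudyne and 0.121 to 0.237 times in vehicle samples, and Vegfd 0.0595 to 0.124 times in Visudyne and 0.0435 to 0.123 times in vehicle samples. Vegfc exceeded Vegfd in every sample, at 1.29 to 2.52 times its level in Visudyne and 1.37 to 2.95 times in vehicle samples. Flt4 stood at 0.220 to 0.325 times Kdr, the VEGFR2 gene of blood endothelium, in Visudyne and 0.213 to 0.373 times in vehicle samples. All of these ratios overlapped between the groups. They rest on the exon length and were not computed with the longest transcript.

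The spread of the members within groups was not shared by all of them. After subtraction of each group's mean from log2 CPM, Itga9 and Angpt2 had a Pearson correlation of 0.91 over the 10 samples, Flt4 and Angpt2 0.83, Flt4 and Itga9 0.79 and Nrp2 and Ccbe1 0.75. Pdpn and Angpt2 had -0.85. Lyve1 and Foxc2 had 0.68, and Vegfc and Foxc2 0.66. These are descriptions of 45 pairs in the same 10 libraries, which share depth and composition between genes.

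**Figure D4:**
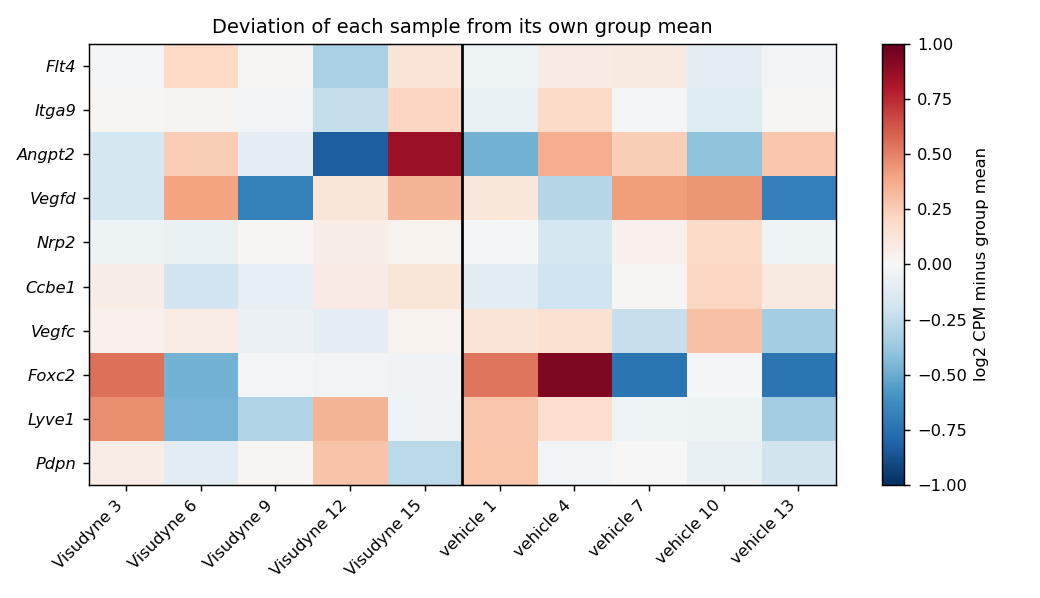
Deviation of log2 CPM from the mean of its own group for the 10 genes (rows) in the 5 Visudyne samples (left of the line) and the 5 vehicle samples (right), red above and blue below the group mean. Angpt2 is lowest in Visudyne 12 and highest in Visudyne 15, and Flt4 and Itga9 are also low in Visudyne 12, while Pdpn is high there.

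The genes whose profile was most like each member were sought among 14473 tested genes with a mean log2 CPM of at least 0, by the same correlation over 10 samples and with no test. The highest of that many correlations over 10 samples can be large by chance, so the genes named here are a description and show no link to a member. Foxc2 was closest to Fmod (0.94) and Ogn (0.92), which encode fibromodulin and osteoglycin, small leucine-rich proteoglycans of the extracellular matrix. Vegfc was closest to Fbln1 (0.93), which encodes the matrix protein fibulin 1, and Gm9830 (0.89). Itga9 was closest to Sned1 (0.97) and Angptl2 (0.96), an angiopoietin-like gene. Flt4 was closest to Cyyr1 (0.97) and Atp8b2 (0.96), Angpt2 to Hspbap1 (0.99) and 2610005L07Rik (0.99), and Vegfd to Myh7 (0.94) and Rxrg (0.91), a retinoid X receptor gene. Nrp2 was closest to Lhx9 (0.98) and Lrrc42 (0.98), Pdpn to P4hb (0.99) and Gid4 (0.98), Lyve1 to Fcf1 (0.96) and Slc7a2 (0.95), and Ccbe1 to Atg14 (0.96) and Nhsl1 (0.95).

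None of the other genes of the pathway passed edgeR's test without a covariate or block. Of 55 listed genes 52 were tested, 39 had positive fold changes with a median of 0.06, where 51.1% of all genes were positive, and 0 passed over all genes in either direction with edgeR or limma voom. In other fits 1 gene passed, Fn1, with DESeq2 and with edgeR when the sample number was a covariate or consecutive numbers were a block. Angpt4, Mmrn1 and Clec1b were not tested because of low counts. The listed genes were chosen with earlier results of these data known, so their counts are no independent test. At an unadjusted p under 0.05, 4 of 52 were higher, against 1.14% of all genes, and 0 lower, against 0.56%. In 1 of 52 every Visudyne sample lay above every vehicle sample, against 0.319% of all genes.

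That gene was Adamts2, a procollagen protease related to Adamts3, at 11.2, 11.9, 10.7, 12.7 and 13.1 CPM in Visudyne 3, 6, 9, 12 and 15, against 10.5, 10.2, 8.48, 8.95 and 9.11 CPM in vehicle 1, 4, 7, 10 and 13. Its log2 fold change was 0.33 (SE 0.08, edgeR adjusted p = 0.9999). Adamts3, the protease that acts with CCBE1 on pro-VEGFC, measured 14.8 ± 1.04 CPM in Visudyne and 14.5 ± 1.40 CPM in vehicle samples (0.03, SE 0.08).

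The other 3 were valve genes. Fn1, which encodes fibronectin, a ligand of integrin alpha 9 in one of its isoforms, had 31.7 ± 4.98 CPM in Visudyne and 20.4 ± 3.94 CPM in vehicle samples (log2 fold change 0.64, SE 0.14, edgeR adjusted p = 0.720; DESeq2 adjusted p = 0.0057). The edgeR adjusted p of Fn1 was 0.0142 with the sample number as covariate and 0.0188 with consecutive numbers as a block. Emilin1, a matrix protein that also binds this integrin, had 2.46 ± 0.495 CPM in Visudyne and 1.58 ± 0.588 CPM in vehicle samples (0.64, SE 0.25). Efnb2, the ephrin B2 gene, had 22.4 ± 1.66 CPM in Visudyne and 19.8 ± 1.65 CPM in vehicle samples (0.17, SE 0.07). Fn1 and Emilin1 each had 4 of 5 Visudyne samples above all vehicle samples, and Efnb2 had 1. Fibroblasts also express Adamts2, Fn1 and Emilin1, and the part of the fibroblast marker difference in them was not tested.

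The blood vessel ligand Vegfa and the receptors Kdr and Nrp1 differed by less than their SE. Vegfa measured 26.4 ± 3.53 CPM in Visudyne and 26.5 ± 2.27 CPM in vehicle samples (log2 fold change -0.0061, SE 0.09), Kdr 8.56 ± 1.37 CPM in Visudyne and 8.15 ± 1.59 CPM in vehicle samples (0.07, SE 0.15), and Nrp1 92.6 ± 5.34 CPM in Visudyne and 91.2 ± 8.83 CPM in vehicle samples (0.02, SE 0.07).

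**Figure D5:**
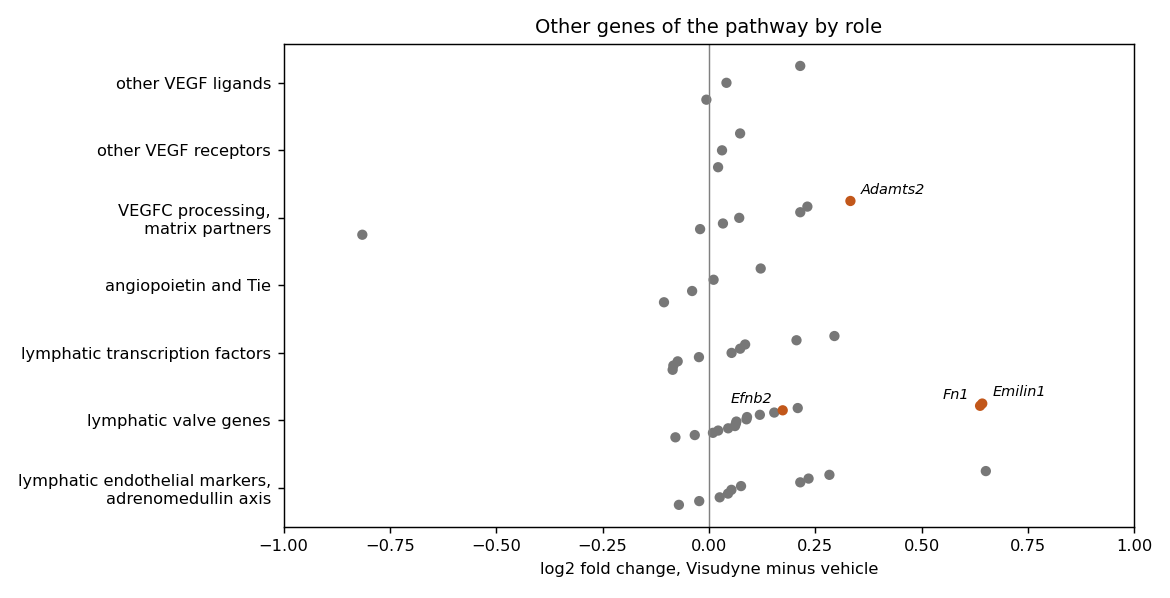
Log2 fold change, Visudyne minus vehicle, of the 52 tested genes in 7 groups of roles (rows; points are genes). Orange points with names have an unadjusted edgeR p under 0.05; all 4 of them lie above 0 and none passed edgeR's test without a covariate or block after adjustment over all genes.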

How the data were processed

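Hippocampal total RNA was sequenced from strand-marking libraries (per the labels' protocols). The deposited table holds estimated counts for Ensembl genes; the submitters' processing notes name FastQC, Salmon and build mm10. Versions, annotation release, strand setting and how transcripts were summed are not stated in the labels. The values are whole, so rounding changed nothing. Salmon shares reads between near-identical genes, whose values are less certain.

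Samples were grouped by title. Symbols, coordinates and exon lengths came from GENCODE M21 (GRCm38; 28564 of 28871 identifiers matched). Chi-square tests found no repeated library among 45 pairs (9.63 to 67.7 per degree of freedom). The whole table was tested with edgeR 4.0.16 (R 4.3.3; quasi-likelihood F-test, TMM, default low-count filter, Benjamini-Hochberg, threshold 0.05), after a test of the procedure on simulated counts. The biological coefficient of variation was 14.6%. Log2 CPM used a prior count of 2.

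Members, lists and the rule for naming genes were chosen with earlier results of these data known. The rule names all members, 5 pathway genes, pathway genes at unadjusted p under 0.05 or without overlap, and 2 most similar genes per member; marker genes and Foxc1 were added after their values were seen. The labels do not say that sample numbers pair samples. When consecutive numbers were taken as 5 sets (vehicle 1 with Visudyne 3, and so on), deviations from the group means correlated within every set (0.11 to 0.51 over all tested genes), though only 4 of 10 samples correlated most with their own set. A fit with these sets as a replicate block was added after seeing the data. Alternatives covered normalization, filters, DESeq2 1.42.0, limma 3.58.1, the sample number as covariate, left-out samples and gene length.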

Additional observations from a re-analysis of the deposited data

Results flagged for a closer look

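In each group of 5 samples, a highest or lowest sample far from the other 4 was looked for among the members, some of the other genes named and the marker sums. Of 68 groups 4 held one, where chance alone marks about 1 in 20 groups. The groups are not independent, since Ttr is itself one of the choroid plexus markers, so the count cannot be judged against that rate. None was a member. Ependymal markers summed to 23.04 CPM in Visudyne 12, against 8.50 to 10.4 CPM in the other Visudyne samples. Choroid plexus markers summed to 219 CPM in vehicle 7, against 28.1 to 43.7 CPM in the other vehicle samples, and Ttr alone had 179 CPM there, against 4.48 to 16.03 CPM in the other vehicle samples. Vegfa had 22.6 CPM in vehicle 10, against 26.8 to 28.5 CPM in the other vehicle samples.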

How the results depend on the processing

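The count of members past the threshold was 0 in all 20 alternatives, as in the reported fit, and 1 member had groups that do not overlap in all 12 alternatives run for that count. Leaving out a sample cannot make separate groups overlap, so those alternatives could only have added members, and none was added. For Foxc2, only the changed normalization factors could have altered the result. Of 198 refitted log2 fold changes of members, 189 kept direction and call and 9 changed sign, all in genes that were not called. Without vehicle 1 and Visudyne 15 they were -0.0043 for Flt4, -0.065 for Itga9, -0.072 for Angpt2 and, among the other genes named, -0.046 for Adamts3. Itga9 was -0.015 with voom quality weights, Vegfa 0.0038 with upper-quartile factors and 0.0085 with the filter of 1 CPM in 5 samples, and Nrp1 -0.0049 with the sample number as covariate. With each sample left out in turn the ranges were -0.020 to 0.114 for Flt4, -0.0025 to 0.094 for Nrp2, -0.054 to 0.068 for Itga9, -0.059 to 0.066 for Vegfa, -0.023 to 0.156 for Kdr, -0.031 to 0.071 for Nrp1 and -0.024 to 0.078 for Adamts3. Among genes that kept their sign, they were 0.030 to 0.472 for Angpt2, 0.128 to 0.401 for Vegfd, 0.096 to 0.345 for Lyve1, 0.347 to 0.941 for Ccl21a and 0.169 to 0.385 for Foxc1, none of them called; Ccl21a was 0.079 without vehicle 1 and Visudyne 15. The cause was not tested. Col1a1 kept its direction but not its call with upper-quartile factors (1.19, adjusted p = 0.0596), with the stricter filter (1.19, adjusted p = 0.05001) and without vehicle 1 and Visudyne 15 (1.30, adjusted p = 0.0732), all with edgeR. Over all genes the count of calls was 4 in the reported fit, 18 with DESeq2, 13 with voom quality weights, 19 with the sample number as covariate, 2 with upper-quartile factors or without vehicle 1 and Visudyne 15, and 0 to 5 with a sample left out. Foxc2 stayed between 1.26 and 1.72 in 19 alternatives; it and Lyve1 did not pass the stricter filter, which left 8 members. The groups share no sample number; with consecutive numbers as a replicate block, added after seeing the data, 0 members passed, Foxc2 was 1.50 (edgeR adjusted p = 0.502), Pdpn 0.22 (edgeR adjusted p = 0.911), the calls over all genes were 10 and Fn1 was called at 0.64. Among the members, the other pathway genes and the fibroblast markers, the block changed no call apart from those of Fn1, Col3a1 and Mgp. Depth limits Foxc2 and Lyve1 most, with as few as 12 and 25 counts in a sample.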
